A study of Homo sapiens with 22 samples.

Results

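Chromosome 19 carried 434 of the 9584 BMAL1 peaks (4.53%) and 28 of the 269 CLOCK peaks (10.4%) mapped by chromatin immunoprecipitation and sequencing (ChIP-seq) in THP-1 cells. It also carried 16 of the 140 regions that the authors list as common to both factors. The members were taken by position alone, as every listed peak on the chromosome, and were then placed on the p arm (up to 24.4 Mb), in the centromere interval (24.4 to 28.6 Mb), on the q arm (28.6 to 59.1 Mb), in 1 Mb bins, and inside or outside 3 zinc finger gene clusters. The clusters were set at 20 to 24.4 Mb, 52.5 to 54 Mb and 56.5 to 59.1 Mb. Coordinates are those of build hg19, and no gene is assigned to a peak, because no annotation of that build was used here.

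THP-1 is an established human monocytic leukaemia line that carries the MLL-AF9 fusion. Both libraries came from untreated cells of this line, and both were fixed with 2 mM ethylene glycol bis(succinimidyl succinate) (EGS), a protein crosslinker, for 30 minutes and then with 1% formaldehyde for 30 minutes. One library was precipitated with an antibody to BMAL1 (the protein of the ARNTL gene) and the other with an antibody to CLOCK. With 1 library per factor there is no replicate error, and the 95% intervals given below cover counting error only. The other 20 libraries of the series, among them input and IgG controls, were not analysed here.

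BMAL1 and CLOCK are basic helix-loop-helix proteins that bind DNA as a pair at E-box sequences, with CACGTG as the best known form. Together they switch on the repressors of the circadian loop and many output genes, usually from sites at or near gene starts. Chromosome 19 is the most gene-dense human chromosome. It is also known for long tandem arrays of KRAB zinc finger genes, which encode DNA-binding repressors of transposable elements and are often packed in heterochromatin.

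Listed BMAL1 peaks were most frequent before 15 Mb on the p arm and from 44 to 52 Mb on the q arm, and sparse around the centromere and in the zinc finger clusters, which include the q arm end. The p arm held 215 BMAL1 peaks (8.81 per Mb, exact Poisson 95% interval 7.67 to 10.1) and the q arm 218 (7.15 per Mb, 6.23 to 8.16). The p to q ratio of densities was 1.23, with an exact interval of 1.02 to 1.50 that only just left out 1. When peaks within 1000 bp were merged the ratio was 1.21 (0.995 to 1.47), so the arms were not separated under that count. CLOCK peaks numbered 13 on the p arm (0.533 per Mb) and 14 on the q arm (0.459 per Mb). Their ratio of 1.16 had an interval of 0.502 to 2.66, which covers both a lower and a higher density on the p arm.

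**Figure D1:**
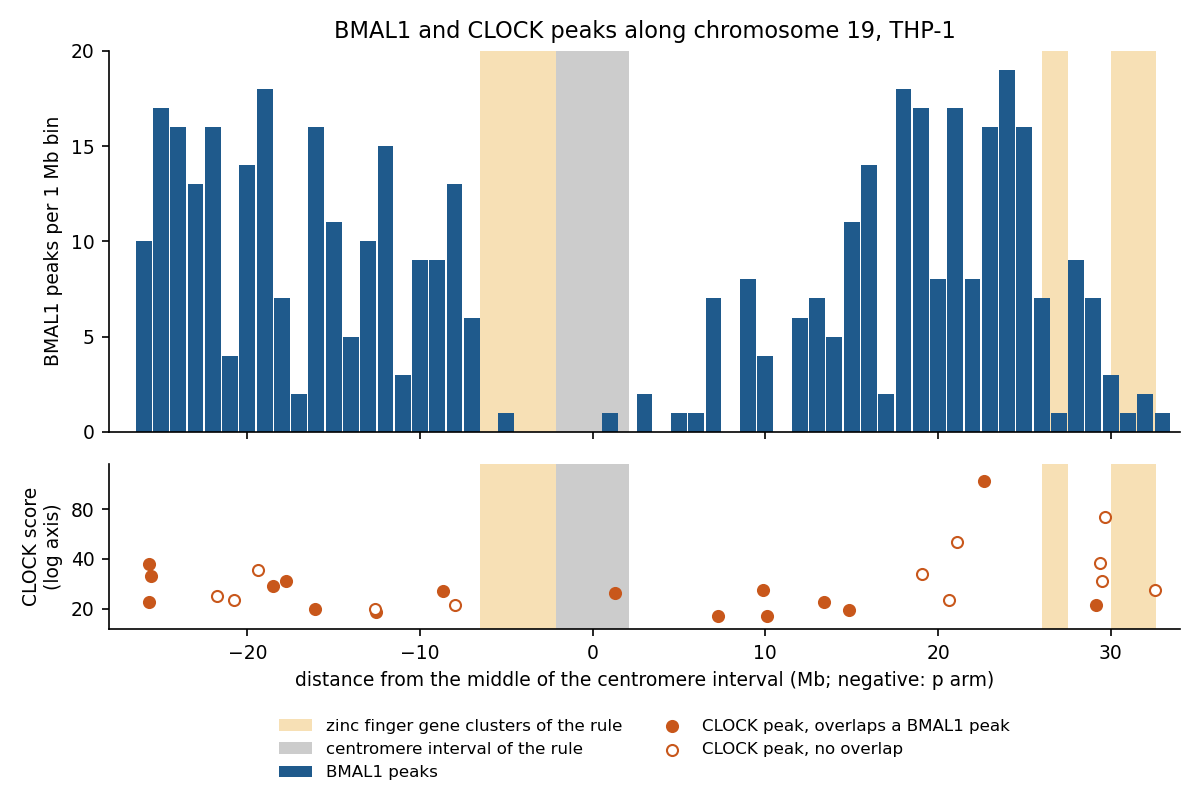
Top, BMAL1 peaks in each 1 Mb bin against distance from the middle of the centromere interval in Mb, and bottom, the 28 CLOCK peaks by score on a log axis, filled where they overlap a BMAL1 peak. The tallest bins hold 18 and 19 BMAL1 peaks, and the shaded clusters and centromere interval hold 8 and 1 in all.

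The 3 zinc finger clusters together held 8 BMAL1 peaks in 8.5 Mb (0.941 per Mb, interval 0.406 to 1.85). The rest of both arms held 425 in 46.4 Mb (9.16 per Mb, 8.31 to 10.1). This rest is the sequence outside the 3 set intervals and may hold other zinc finger genes, which form 15 runs of 5 or more neighbours on chromosome 19. The ratio of cluster to rest was 0.103 (0.0441 to 0.204). The intervals are far apart, so the difference is larger than counting error. It was found on each arm: the p arm cluster had 1 peak against 214 in the other 20 Mb of that arm (ratio 0.0212, interval 0.000535 to 0.12), and the q arm clusters had 7 against 211 in 26.4 Mb (ratio 0.214, 0.0848 to 0.448).

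The 8 cluster peaks were of ordinary height. A peak's score is the authors' own value, without a stated unit, and is compared here only within 1 list. In the cluster from 20 to 24.4 Mb the only BMAL1 peak was chr19:21688774-21689170, with a score of 21.5. Between 52.5 and 54 Mb the list held chr19:52642218-52642614 with 16 and chr19:53030436-53030832 with 20.5. The last cluster held 5 peaks scoring 10 to 17.5, the highest being chr19:57901036-57901432. The median of all 8 was 16.5, against 14.5 in the rest of both arms, and 2 of 8 scored 18 or more (25%, exact 95% interval 3.19 to 65.1%) against 136 of 425 (32.0%). With 8 peaks the scores cannot be told apart from those elsewhere. None of the 8 overlapped a CLOCK peak, against 15 of 425 in the rest of the arms (3.53%), and the exact interval of that 0% reaches 36.9%.

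A single CLOCK peak lay in a zinc finger cluster. This was chr19:59070130-59070662, scoring 26, near the q arm end and 37219 bp from the nearest BMAL1 midpoint. The clusters thus had 0.118 CLOCK peaks per Mb and the rest of the arms 0.560. That ratio, 0.210, had an interval of 0.00512 to 1.28, so with 1 peak against 26 a lower CLOCK density in the clusters was not separated from an equal one. With the cluster edges moved inward by 200000 bp the count was 0 against 27, and the interval of that ratio, 0 to 0.955, left out 1, so the outcome turns on the placing of this 1 peak.

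Sparse stretches were not confined to these 3 clusters, although whether the other stretches hold zinc finger genes was not examined. Of the 60 bins of 1 Mb, 10 held no BMAL1 peak. They started at 20, 22 and 23 Mb in the p arm cluster, at 24, 25, 26 and 28 Mb in and at the edges of the centromere interval, and at 30, 34 and 37 Mb on the q arm outside any of the 3 clusters. The longest run without a BMAL1 peak spanned 6.11 Mb from 21689171 to 27802045, from the p arm cluster into the centromere interval. How much of this run, and of the empty bins at the centromere, reads can be placed on was not examined. These bins are therefore not shown to lack binding. On the q arm the longest run was 1.89 Mb from 36619003 to 38510943, a stretch that begins where a shared peak ends. From the centromere interval to 33 Mb, a stretch picked after its values were seen, 4 BMAL1 peaks were listed in 4.4 Mb (0.909 per Mb), close to the 0.941 of the zinc finger clusters.

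The centromere interval held 1 BMAL1 and 1 CLOCK peak, and these overlapped. The CLOCK peak chr19:27801986-27802518 scored 25 and the BMAL1 peak chr19:27802046-27802442 scored 11, with midpoints 8 bp apart. This pair is the only listed signal of either factor in the 4.2 Mb interval, but how much of it reads can be placed on was not examined. The BMAL1 score is near the lowest of that list, 10, and the input and IgG controls were not looked at here.

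Peaks were concentrated in a few bins. The 12 bins with 15 or more BMAL1 peaks held 201 of the 434 (46.3%), and all 12 lay between 1 and 15 Mb or between 44 and 52 Mb. The fullest bin, from 50 to 51 Mb, had 19 BMAL1 peaks and no CLOCK peak. The bins from 7 to 8 Mb and from 44 to 45 Mb followed with 18 each, the first with 2 CLOCK peaks and the second with none. Other bin limits put the fullest bin elsewhere, at 7.5 Mb for 500 kb bins, 44 Mb for 2 Mb bins and 0.5 Mb for 1 Mb bins shifted by 500 kb, so the order among the full bins carries no weight. For CLOCK the fullest bins were those from 0 to 1 Mb and from 55 to 56 Mb with 3 peaks each, followed by those from 7 to 8, 13 to 14, 36 to 37 and 47 to 48 Mb with 2 each.

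The median BMAL1 count was 9.5 in the 20 bins with a CLOCK peak and 4 in the others. Of the 12 fullest BMAL1 bins 6 held no CLOCK peak, while only 20 of all 60 bins held one. The fullest bins thus lacked a CLOCK peak less often than bins as a whole. The 60 bins share the same 2 libraries, and their gene density was not measured. Across these bins the counts of both factors had Spearman rho 0.33 and Pearson r 0.26, given as a description of neighbouring bins of 1 chromosome.

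The strongest listed BMAL1 peak of the chromosome was chr19:13210838-13211234 on the p arm, with a score of 155, the 10th highest of the whole list. On the q arm the strongest was chr19:41739626-41740022 with 104.5. They were followed by chr19:4216848-4217244 with 101, chr19:39889090-39889486 with 93 and chr19:50015585-50015981 with 77. None of these 5 overlapped a CLOCK peak. The 6th, chr19:33751638-33752034 with 75, did, but with a CLOCK peak of the lowest score in that list, 18, and with midpoints 352 bp apart. Next came chr19:50871899-50872295 with 65.5, chr19:850575-850971 with 64 and chr19:45946672-45947068 with 63, all without CLOCK. The 10th, chr19:823647-824043 with 62.5, overlapped a CLOCK peak scoring 22. Thus 2 of these 10 were shared with CLOCK (20%), with an exact 95% interval of 2.52 to 55.6%. Over all 434 BMAL1 peaks the share was 3.69%, beside 1.46% over all chromosomes.

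BMAL1 scores were alike on both arms. The median was 14.5 on each, with quartiles of 12 and 19.5 on the p arm and 11.6 and 21 on the q arm. Scores of 18 or more were given to 65 of 215 p arm peaks (30.2%) and 73 of 218 q arm peaks (33.5%). Among the 35 bins with 5 or more BMAL1 peaks, the bin median ran only from 12 (18 to 19 Mb, 13 peaks) to 19.2 (4 to 5 Mb, 16 peaks) on this scale from 10 to 155.

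**Figure D2:**
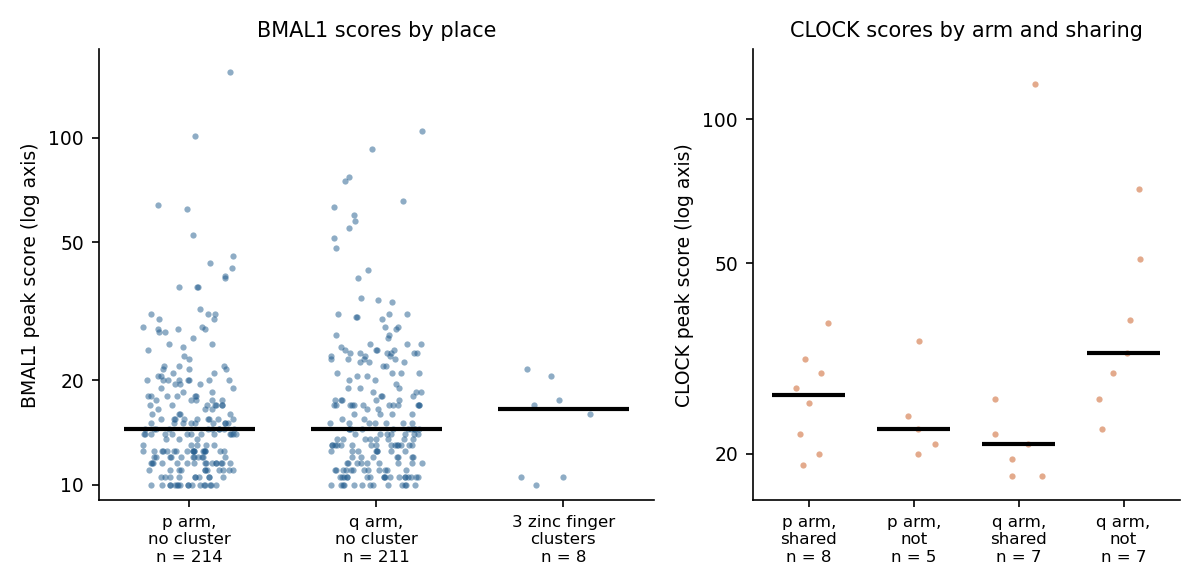
Scores on log axes, 1 point per peak, with lines at the medians: left, BMAL1 peaks outside the clusters on the p and q arm and inside the 3 clusters, and right, CLOCK peaks by arm and by overlap with BMAL1. BMAL1 medians are 14.5, 14.5 and 16.5, and the highest CLOCK scores without overlap, 71.5 and 51, are on the q arm.

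With 1 bp of common sequence as the minimum, 16 of the 28 CLOCK peaks were shared with BMAL1 (57.1%, exact 95% interval 37.2 to 75.5%). Over all chromosomes the share was 52.0%, inside that interval, so sharing of CLOCK peaks on chromosome 19 was at the level of the whole list. By arm, 8 of 13 CLOCK peaks were shared on the p arm (61.5%, 31.6 to 86.1%) and 7 of 14 on the q arm (50%, 23.0 to 77.0%). Each interval includes the share of the other arm. In the authors' deposited table all 16 common regions equalled the bases that both peaks share, with widths of 113 to 397 bp, and 8 of them were as wide as a whole BMAL1 peak.

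The shared sites at the p arm end came first. Within the first Mb, chr19:796816-797348 had a CLOCK score of 37.5 and lay on a BMAL1 peak scoring 15, with midpoints 9 bp apart. Its neighbour chr19:823592-824124 had a low CLOCK score of 22 on a strong BMAL1 peak of 62.5, 13 bp away. The third, chr19:947699-948231, had a CLOCK score of 31.5 on a weak BMAL1 peak of 11.5, 78 bp away. At these 3 neighbours the highest CLOCK score was not on the highest BMAL1 score.

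Farther along the p arm, the pair at chr19:7968266-7968798 scored 27.5 for CLOCK and 18.5 for BMAL1, and that at chr19:8747501-8748033 had 29.5 and 10, the lowest BMAL1 score in the list. At chr19:10445507-10446039 the scores were 20 and 11.5 and the midpoints 3 bp apart, the closest pair of the chromosome. The last p arm pairs were chr19:13951913-13952445 with 19 and 14.5, and chr19:17828089-17828621 with 25.5 and 40. On this arm all 8 shared pairs had midpoints within 100 bp.

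On the q arm, 5 shared sites lay between 33 and 42 Mb. They were chr19:33751218-33751750, with CLOCK and BMAL1 scores of 18 and 75, chr19:36370851-36371383 with 26 and 16, chr19:36618703-36619235 with 18 and 24, chr19:39902696-39903228 with 22 and 16, and chr19:41337534-41338066 with 19.5 and 23. Their midpoints were 51 to 352 bp apart, and only that at 36370851 was within 100 bp. Over the whole q arm 3 of 14 CLOCK peaks had a BMAL1 midpoint within 100 bp (21.4%, exact 95% interval 4.66 to 50.8%), so its share of 50% rested in part on partial overlaps.

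The strongest shared site was chr19:49140797-49141329. Its CLOCK score of 118.5 was the highest of the chromosome and the 4th highest of the whole list. The BMAL1 peak under it, chr19:49140850-49141246, scored 48 and ranked 16th on the chromosome, with midpoints 15 bp apart. The remaining shared q arm site was chr19:55671886-55672418, with 21 for CLOCK and 17 for BMAL1.

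Several of the strongest CLOCK peaks of chromosome 19 had no BMAL1 peak listed under them. The 2nd to 4th highest were chr19:56165827-56166359 with 71.5, chr19:47616290-47616822 with 51 and chr19:55896822-55897354 with 38. In that order, the closest BMAL1 peaks were centred 23657, 15267 and 53842 bp off. After the shared peak scoring 37.5 came chr19:7098907-7099439 with 34.5 and chr19:45595934-45596466 with 32.5, again unshared, then the shared peaks scoring 31.5 and 29.5, and chr19:55972909-55973441, unshared with 29.5. Of the 10 highest CLOCK peaks 4 were shared (40%, exact 95% interval 12.2 to 73.8%), an interval that includes the 57.1% of all 28.

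The other unshared CLOCK peaks were lower, the one in the zinc finger cluster near the q arm end, with 26, among them. The rest on the p arm were chr19:4769373-4769905 with 24, chr19:5720010-5720542 with 22.5, chr19:18526946-18527478 with 21 and chr19:13905797-13906329 with 20, and on the q arm chr19:47164523-47165055 with 22.5. That at 4769373 was 37726 bp from a BMAL1 peak of 45.5. That at 18526946 lay 963 bp from a BMAL1 peak scoring 52.5, and that at 13905797 lay 4660 bp from one scoring 14. The other 10 of the 12 unshared peaks were more than 10000 bp from any BMAL1 midpoint.

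**Figure D3:**
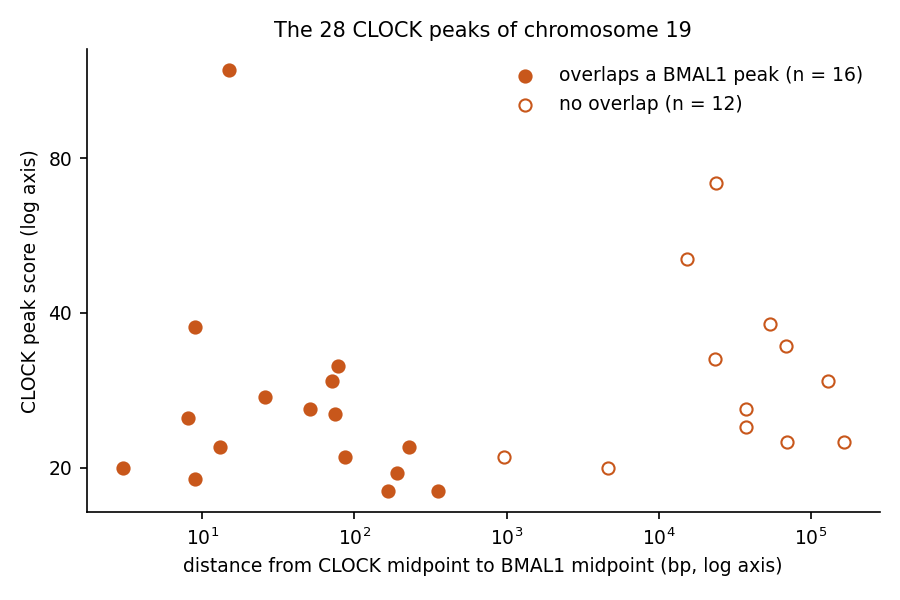
CLOCK score against the distance from the CLOCK midpoint to the BMAL1 midpoint (of the overlapping peak, or else the nearest), both on log axes, for the 28 CLOCK peaks. Overlapping peaks lie at 3 to 352 bp, the others at 963 to 164232 bp, and high scores occur on both sides.

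The median CLOCK score was 23.5 in the 16 shared peaks, with quartiles of 19.9 and 28, and 27.8 in the 12 others, with quartiles of 22.5 and 35.4. On the other chromosomes the order was the opposite, 26 in 124 shared and 22.5 in 117 other peaks. The difference between these orders was not tested, and the quartiles on chromosome 19 overlap. Shared BMAL1 peaks had a median of 16.5, against 14.5 in the 418 others. Over the 16 pairs CLOCK and BMAL1 scores had Pearson r 0.21 and Spearman rho -0.26, and without the pair at 49140797 r was -0.37. On the other chromosomes r was 0.55 and rho 0.33 over 124 pairs. All pairs come from the same 2 libraries, and 16 pairs are too few to read a relation from.

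All 7 unshared CLOCK peaks of the q arm lay past 44 Mb. Before that limit, which was chosen because of this pattern, all 5 q arm CLOCK peaks were shared (exact 95% interval 47.8 to 100%), and after it 2 of 9 were (22.2%, 2.81 to 60%). These intervals overlap, and with a limit chosen from the values the split is a description only. BMAL1 peaks numbered 9.93 per Mb after the limit and 4.42 before it. The 7 unshared peaks had a median CLOCK score of 32.5. Within 100 kb of the midpoint, unshared CLOCK peaks of the whole chromosome had a median of 2 BMAL1 peaks and shared ones 4.5, a count that includes the overlapping peak itself.

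Seen from the BMAL1 list, 16 of 434 peaks were shared (3.69%, exact 95% interval 2.12 to 5.92%), while 1.46% of BMAL1 peaks over all chromosomes and 124 of 9150 on the other chromosomes (1.36%, 1.13 to 1.61%) were. These intervals do not overlap. For BMAL1 scores below 18 the share was 9 of 296 (3.04%, 1.40 to 5.69%) against 0.961% elsewhere (0.733 to 1.24%). For scores of 18 or more it was 7 of 138 (5.07%, 2.06 to 10.2%) against 2.16% (1.67 to 2.74%), and there the intervals overlapped. Chromosome 19 had 15.5 BMAL1 peaks for each CLOCK peak and the other chromosomes 38.0. Chromosomes 22 and 17, the next densest, had 14 and 20.4, so a low number of BMAL1 peaks per CLOCK peak was not found on chromosome 19 alone. Shared CLOCK peaks numbered 7 beside 168 BMAL1 peaks on chromosome 22, and 11 beside 388 on chromosome 17. A share above 1.46% was thus not particular to chromosome 19 either. With CLOCK peaks shared alike (57.1% against 51.5% on the other chromosomes), fewer BMAL1 peaks per CLOCK peak must give a higher share of BMAL1 peaks.

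Per Mb between its outermost peaks, chromosome 19 had 2.35 times as many BMAL1 peaks as the other 23 chromosomes together (exact 95% interval 2.13 to 2.59) and 5.76 times as many CLOCK peaks (3.75 to 8.54). Its 7.38 BMAL1 peaks per Mb (6.70 to 8.11) were above the 5.02 of chromosome 22 (4.29 to 5.84) and the 4.82 of chromosome 17 (4.35 to 5.32), with no overlap of intervals. For CLOCK, chromosome 19 had 0.476 per Mb (0.316 to 0.688). Chromosome 22 had 0.359 (0.185 to 0.627) and chromosome 17 had 0.236 (0.142 to 0.369). These intervals overlap that of chromosome 19, which does not show equal densities, and ratios to single chromosomes were not computed. Of the 59 bins with 15 or more BMAL1 peaks in the genome, 12 were on chromosome 19, which is 20% of its bins, against 1.60% of the bins elsewhere. The fullest bin of all, with 26 peaks, was on chromosome 6 from 36 Mb. Heights were ordinary, with a median of 14.5 both on chromosome 19 and over the other chromosomes.

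**Figure D4:**
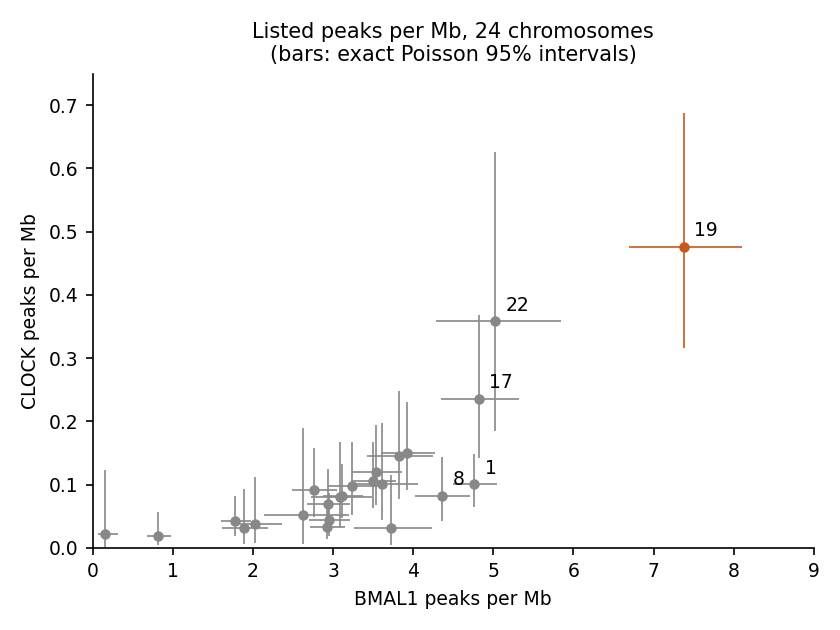
BMAL1 against CLOCK peaks per Mb between the outermost listed peaks, 1 point for each of 24 chromosomes with exact Poisson 95% intervals, and the 5 densest for BMAL1 labelled. Chromosome 19 lies highest on both axes, at 7.38 and 0.476, and its CLOCK interval overlaps those of chromosomes 22 and 17.

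That first place holds for listed peaks. Each peak carries a number that follows score within its chromosome, with 0 exceptions among 433 neighbouring BMAL1 pairs and 27 CLOCK pairs of chromosome 19, and some numbers are absent from the lists. By the highest number per Mb, which counts absent entries too, chromosome 19 was 2nd for BMAL1 (9.11, after 11.3 on chromosome 1) and 8th for CLOCK (1.12, with 7.45 on chromosome 1). Of its CLOCK numbers 57.6% were absent, against 93.8% on the other chromosomes together, 50% on chromosome 22 and 60.4% on chromosome 17. Of its BMAL1 numbers 19% were absent, against 32.7% on the other chromosomes together, 17.6% on chromosome 22 and 18.1% on chromosome 17. The other chromosomes together include chromosome 1, where 98.7% of 1856 CLOCK numbers and 57.8% of 2810 BMAL1 numbers were absent. Among the 24 chromosomes, chromosome 19 had the 3rd lowest percent absent for CLOCK and the 7th lowest for BMAL1. The part of these absences in the high density, in the CLOCK share of BMAL1 peaks and in the empty stretches was not tested, as the positions of absent entries are unknown.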

How the data were processed

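ChIP-seq peak lists of 1 BMAL1 and 1 CLOCK library of THP-1 cells were used. Per the source column of the peak lists, HOMER called the peaks. Build hg19, HOMER 4.7.2, Picard, SAMtools 1.2 and Bowtie 0.12.7 are listed, without role or order, in the submitters' processing notes. Peak scores were used as deposited by the authors. Their unit, the control library and the threshold of the calls were not given in the sources used here. Sequencing depth is unknown.

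A peak was placed by its midpoint. Overlap meant at least 1 bp. Densities have exact Poisson intervals, their ratios exact conditional intervals, and shares exact Clopper-Pearson intervals, all at 95%. They treat peaks as independent, which neighbours may not be. No test over samples was possible with 1 library per factor. Functions were tested on simulated data. The chromosome, its limits and the comparisons were chosen with earlier results of these data known. Named regions are the 10 highest peaks of each list, every shared CLOCK peak, CLOCK peaks in clusters, the strongest BMAL1 peak per arm and cluster, and the 3 fullest bins. Others were named after their values were seen. Tests of genes and E-box words at peaks were not run, as the reference used was GRCh38. Alternatives covered score limits, overlap rules, merging, lengths, cluster edges and bins. Tables were handled with pandas 2.3.3 and numpy 2.4.6, intervals came from scipy 1.17.1, and plots from matplotlib 3.10.9, under Python 3.11.15.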

Additional observations from a re-analysis of the deposited data

Results flagged for a closer look

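Peak numbers, a column that no comparison by position used, had gaps on chromosome 19. Of 536 BMAL1 numbers 102 were absent and of 66 CLOCK numbers 38 were. Because numbers follow score, the place of a gap gives the score range of the missing entry. BMAL1 numbers 1 to 4 were absent, and if the order holds for them these 4 scored at least the listed maximum of 155. Of the CLOCK numbers, 1 to 3 were absent, before the listed maximum of 118.5, and so were 6 of the first 10. In the BMAL1 list absence grew toward low scores, from 5.97% of numbers 1 to 134 to 33.6% of numbers 403 to 536. In the CLOCK list it was 56.2% of numbers 1 to 16 and 29.4% of numbers 17 to 33. It was 68.8% of numbers 34 to 49 and 76.5% of numbers 50 to 66. The reason for these absences was not tested.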

How the results depend on the processing

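Of 67 alternatives to 12 results, 14 moved a density ratio or a share outside the counting interval of the result, and all 3 other bin limits moved the place of the fullest bin. Of the 4 alternatives added after the data were seen, leaving the clusters out of the arms (BMAL1 and CLOCK) and leaving out the centromere CLOCK peak moved no value outside its interval, and removing empty bins and the first 4 Mb of the q arm could only lower the BMAL1 ratio (to 0.0901). The cluster to rest ratio of BMAL1 density stayed between 0.0555 and 0.186 over edge shifts of 200000 bp and removal of each cluster, and was 0.0212 on the p arm alone and 0.214 on the q arm alone. For CLOCK that ratio was 0 with edges moved inward (interval 0 to 0.955), without the last cluster (0 to 1.2) and on the p arm alone (0 to 1.49), as 1 peak decides it. Sharing of CLOCK peaks fell from 57.1% to 28.6% when the whole BMAL1 peak had to lie inside the CLOCK peak, to 25% (p arm 23.1%, rest of the arms 26.9%) against BMAL1 scores of 18 or more, and to 31.2% (rest 35.7%) in the upper part of both lists. Stricter lists and rules must give fewer shared peaks. The upper part also cut the CLOCK list, to 16 peaks, so its percent shared was not bound to fall. The whole-peak rule gave 14.3% on the q arm and 26.9% in the rest, and the 100 bp rule 21.4% on the q arm. The p to q ratio of BMAL1 density ranged from 1.19 to 1.36, and its interval included 1 with merged peaks and with the upper part of the list (0.908 to 1.55). The interval left out 1 with lengths between the outermost peaks (1.12 to 1.65) and with the clusters left out of the arms (1.10 to 1.63). No paired analysis was possible because both lists come from single libraries, and no list was used of the libraries numbered as replicates. The difference of cluster and other BMAL1 median scores, 2, ranged from -0.75 without the cluster at 52.5 Mb to 7 on the p arm. Analyses of E-box words in peaks were not run. As depth is unknown, a site missing from a list was not shown to be unbound.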

Other observations

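In the RefSeq gene table (GRCh38, used for names and order only and not joined to the peaks), 246 of 1451 protein-coding genes of chromosome 19 had a zinc finger symbol of the form ZNF and a number (17.0%). These were 48.3% of all such genes in the genome. On chromosome 19, 171 of them stood in 15 uninterrupted runs of 5 or more neighbours, the longest with 27 genes. The 3 clusters compared above therefore need not hold all zinc finger genes of the chromosome.

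The palindromic E-box CACGTG, the same on both strands, occurred in 12 of 268 promoter windows of these genes on chromosome 19 (4.48%, exact 95% interval 2.33 to 7.69%). A window ran from 250 bases before to 50 after a gene start. Other genes of chromosome 19 had it in 126 of 1649 windows (7.64%, 6.40 to 9.03%), and all promoters of the genome in 7.26%. The intervals overlap, and a match is only a word in the sequence. To show what such a word looks like in a zinc finger gene promoter, the first 4 by gene number are given 5′ to 3′ from RefSeq (GRCh38), with the E-box in capitals and 12 bases on either side. The ZNF296 window lies on the minus strand and the others on the plus strand.
ZNF296: gggcccggccagCACGTGtaagagttcgcg
ZNF324: acaggcgggaacCACGTGacccggaaggct
ZNF460: acgggaagtccaCACGTGgcgaacgcgaag
ZNF507: ccacccgcggctCACGTGatccgtccccag

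Neighbouring BMAL1 peaks of chromosome 19 had a median spacing of 49830 bp, against 95764 bp on the other chromosomes. Only 3 of 433 spacings were under 1000 bp. The closest pair, chr19:12721297-12721693 and chr19:12722068-12722464, had scores of 17.5 and 25.5 and midpoints 771 bp apart.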
